A study of Homo sapiens with 8 samples.

Results

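In N/TERT-1 keratinocytes exposed to antimycin A together with oligomycin (O/A), the genes of the cornified envelope did not change in one direction. CSTA, SPRR2D and KRT10 rose by 1.87-fold, 1.68-fold and 1.38-fold, whereas EVPL and IVL fell to 0.699 and 0.809 of their level in ethanol. KRT10 overlaps KRT10-AS1 on the other strand, and with both summed the log2 fold change was smaller, at 0.29. PPL, TGM1, SPRR1A and SPRR1B were detected in every library and did not pass the test, and KRT1 had 0 counts in all 8 libraries and could not be tested. These 10 genes were taken by symbol from the 61806 rows of the expression table. The set holds envelope precursors, an envelope transglutaminase and suprabasal keratins, and was chosen with earlier results of these data known.

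The cornified envelope is the shell of cross-linked protein that replaces the plasma membrane of a keratinocyte at the end of its differentiation. Envoplakin and periplakin form a scaffold under the membrane, involucrin, cystatin A and the small proline-rich proteins are added to it, and transglutaminases join them by covalent bonds, while lipids are bound to the outside. Cells that leave the basal layer of the epidermis replace the basal keratins KRT5 and KRT14 by KRT1 and KRT10. Genes of the envelope are in general higher in differentiating cells than in proliferating ones.

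N/TERT-1 is an immortalized human keratinocyte line, used here as wild type. mRNA was sequenced from 4 libraries treated with ethanol, the solvent control, and 4 treated with O/A, where oligomycin inhibits the mitochondrial ATP synthase and antimycin A inhibits complex III. The sequenced comparison was made after 4 hours per the paper, the labels give neither a dose nor a time, and the libraries of each condition came from 4 independent experiments with this single line. All cells were grown in dishes in keratinocyte serum-free medium with recombinant EGF and bovine pituitary extract. Calcium chloride was listed for all of them in units that differ between the labels and the methods. The paper names it under general cell culture and not under mRNA sequencing, so the calcium level of these libraries is not settled here.

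The library totals were 17210404 to 20999927 counts in ethanol and 17689760 to 19263046 counts in O/A. Basal keratinocyte genes defined the cells, with summed levels of 2840.62 to 3097.14 FPKM (counted fragments per kilobase of exon, scaled to the library total) in ethanol and 2474.45 to 2622.54 FPKM in O/A for 6 of 6 detected markers. KRT5 fell from 1433 ± 42.9 to 1128 ± 37.8 FPKM (mean ± SD, n = 4), and KRT14 was at 1065 ± 71.4 and 966 ± 28.4 FPKM and did not pass the fold threshold. The basal markers ITGA6 and ITGB4 were higher in O/A, at log2 fold changes of 0.14 and 0.15. COL17A1 and TP63 were at 0.02 and -0.05, and these genes also stayed within the fold threshold. The median log2 fold change of the 6 markers was -0.02. Summed markers of melanocytes were at 1.81 FPKM or less in every library, with MLANA and TYR at 0, those of immune cells were at 0.42 FPKM or less, and those of endothelial cells were at 0.08 FPKM or less. The fibroblast list reached 2.95 FPKM, nearly all from COL1A1, while COL1A2 had at most 1 count.

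A gene was called changed at an adjusted p of at most 0.05 and an absolute log2 fold change above 0.25, by the quasi-likelihood test of edgeR, adjusted after Benjamini and Hochberg across the 14893 genes that reached 10 counts in 4 or more libraries. By this rule 34.7% of the tested genes were called, 15.8% up and 18.9% down, and the 2 conditions did not overlap in 47.6% of the tested genes. Of the 9 envelope genes tested, 3 were called up, 2 were called down and 4 were not called, and the 5 called genes were also those whose conditions did not overlap. The middle value of the 9 log2 fold changes was 0.18, that of TGM1, beside a median of -0.000396 over all tested genes. In RNA from a whole culture, fewer cells that express a gene and less RNA per cell cannot be told apart.

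**Figure D1:**
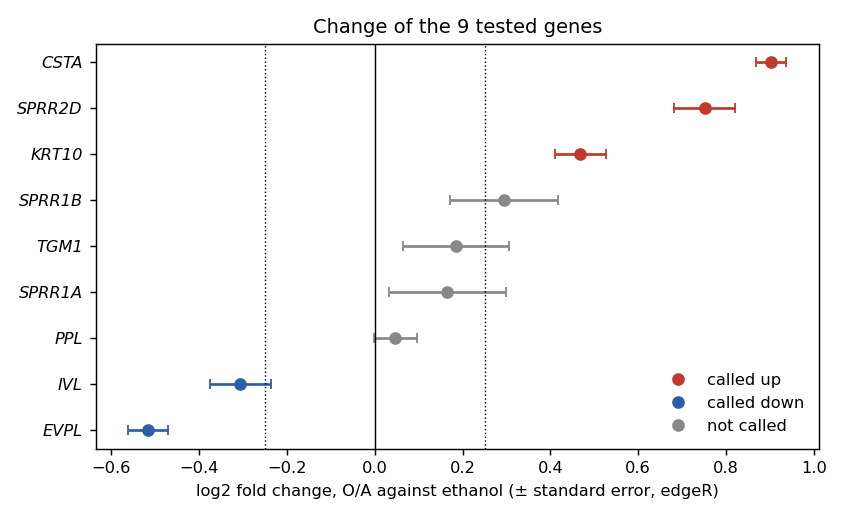
The x axis gives the log2 fold change of O/A against ethanol for each of the 9 tested genes, with its standard error from edgeR, and dotted lines mark the fold threshold of 0.25 in each direction. CSTA, SPRR2D and KRT10 lie to the right of the threshold, EVPL and IVL to the left, and SPRR1B lies beyond the line at 0.29 with an adjusted p above 0.05.

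Involucrin (IVL, ENSG00000163207, chr1:152908546-152911886 of GRCh38, plus strand) is an early precursor to which other envelope proteins are attached, and its annotated transcript has 2 exons with a coding sequence of 1758 bases. Its level was 9.99, 9.02, 11.0 and 9.32 FPKM in the ethanol libraries and 7.51, 7.85, 8.23 and 7.13 FPKM in the O/A libraries. Each O/A library was below each ethanol library, with a narrow gap between the lowest ethanol and the highest O/A value. The mean fell from 9.83 ± 0.873 to 7.68 ± 0.470 FPKM, a log2 fold change of -0.31 with a standard error of 0.069 (edgeR adjusted p = 1.66e-04, exact permutation p = 0.0286 on log2 CPM, two-sided). With 4 libraries against 4, 0.0286 is the smallest p that the exact permutation test can give. Without ethanol replicate 3, the highest library for this gene, the log2 fold change was -0.25 (edgeR adjusted p = 0.00303), still called but at the edge of the fold threshold.

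Cystatin A (CSTA, ENSG00000121552, chr3:122325248-122341969, plus strand, 3 exons), a cysteine protease inhibitor that is also built into the envelope, had the largest change of the 9 tested genes. The ethanol libraries held 60.7, 61.8, 63.9 and 62.9 FPKM and the O/A libraries 115, 119.8, 112 and 105 FPKM, so the conditions were far apart and the spread within each was small. The mean rose from 62.3 ± 1.38 to 113 ± 6.33 FPKM, and the log2 fold change was 0.90 with a standard error of 0.034 (edgeR adjusted p = 6.16e-28, exact permutation p = 0.0286). CSTA rests on 1484 to 3080 counts per library. It was the most abundant of the 10 genes in O/A on the FPKM scale, which divides by exon length, while SPRR1B stood beside it in ethanol at 66.6 ± 9.72 FPKM.

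The small proline-rich genes SPRR1A, SPRR1B and SPRR2D lie with IVL in the epidermal differentiation complex on chromosome 1 and encode short cross-bridging proteins. Their copies are close to identical, so the sequences are shown before the values for how few bases separate one gene from the next. The coding sequences are read 5′ to 3′ on the strand of the gene from GRCh38 with the GENCODE annotation, each lies in a single exon, and capitals mark the positions at which the compared genes differ. SPRR2D (chr1:153040128-153040346, minus strand), SPRR2A (chr1:153056517-153056735, minus strand) and SPRR2E (chr1:153093533-153093751, minus strand) have 219 coding bases each and differ at 6 positions.
SPRR2D: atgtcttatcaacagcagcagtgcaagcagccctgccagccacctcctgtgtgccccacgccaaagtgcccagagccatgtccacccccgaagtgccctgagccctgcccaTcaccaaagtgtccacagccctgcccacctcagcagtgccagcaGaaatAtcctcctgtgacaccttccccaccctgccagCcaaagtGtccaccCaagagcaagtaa
SPRR2A: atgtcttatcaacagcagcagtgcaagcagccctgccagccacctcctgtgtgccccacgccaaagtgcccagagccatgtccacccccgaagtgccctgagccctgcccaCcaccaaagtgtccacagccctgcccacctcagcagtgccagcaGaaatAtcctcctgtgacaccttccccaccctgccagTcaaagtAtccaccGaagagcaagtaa
SPRR2E: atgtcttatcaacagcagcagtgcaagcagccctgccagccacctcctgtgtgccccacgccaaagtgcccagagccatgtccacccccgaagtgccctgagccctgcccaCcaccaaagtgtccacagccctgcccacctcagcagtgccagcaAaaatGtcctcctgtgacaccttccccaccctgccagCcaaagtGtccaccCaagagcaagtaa

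SPRR2D (ENSG00000163216, chr1:153039732-153041931) held 16.8, 18.8, 21.7 and 16.97 FPKM in ethanol, against 32.8, 29.4, 31.4 and 27.1 FPKM in O/A. Every O/A library was above every ethanol library. The mean rose from 18.6 ± 2.29 to 30.1 ± 2.48 FPKM, with a log2 fold change of 0.75 and a standard error of 0.070 (edgeR adjusted p = 1.29e-10, exact permutation p = 0.0286).

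The neighbouring copies did not pass the test. SPRR2A was at 9.94 ± 1.24 FPKM in ethanol against 11.3 ± 0.977 FPKM in O/A, with a log2 fold change of 0.23 (edgeR adjusted p = 0.0641). SPRR2E was at 2.74 ± 0.605 and 1.91 ± 0.253 FPKM, with a log2 fold change of -0.46 (edgeR adjusted p = 0.0574). SPRR2B, whose coding sequence differs from that of SPRR2D at 3 of 219 bases, had 0 counts in all libraries. When the 7 SPRR2 genes were summed, the libraries held 473, 515, 563 and 581 counts in ethanol and 780, 774, 809 and 675 counts in O/A, and the log2 fold change was 0.57 with a standard error of 0.057 (edgeR adjusted p = 2.54e-11). The longest stretch that the SPRR2D transcript shares with SPRR2A is 142 bases, shorter than the 150 bases of a read. Shorter reads and reads aligned with mismatches were not examined, so this length does not show that every read separates these genes.

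SPRR1A and SPRR1B have 270 coding bases each and differ at 10 of them, which gives an identity of 96.3%. SPRR1A is coded at chr1:152985231-152985500 and SPRR1B at chr1:153032346-153032615, both on the plus strand.
SPRR1A: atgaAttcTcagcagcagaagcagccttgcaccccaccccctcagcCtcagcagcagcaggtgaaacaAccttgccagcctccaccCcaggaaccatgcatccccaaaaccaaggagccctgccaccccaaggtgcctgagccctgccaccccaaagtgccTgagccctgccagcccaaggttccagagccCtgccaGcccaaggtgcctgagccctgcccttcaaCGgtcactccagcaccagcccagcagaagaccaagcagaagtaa
SPRR1B: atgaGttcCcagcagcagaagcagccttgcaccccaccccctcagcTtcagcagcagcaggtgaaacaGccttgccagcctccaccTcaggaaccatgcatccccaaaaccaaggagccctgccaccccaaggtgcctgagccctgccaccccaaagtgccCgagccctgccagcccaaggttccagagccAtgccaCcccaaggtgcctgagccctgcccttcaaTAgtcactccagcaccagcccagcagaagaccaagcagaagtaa

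SPRR1A (ENSG00000169474, chr1:152984081-152985814) was at 7.07, 5.59, 9.65 and 8.20 FPKM in ethanol, against 8.11, 9.31, 8.78 and 6.90 FPKM in O/A. The conditions overlapped along most of their range. The means were 7.63 ± 1.72 and 8.28 ± 1.04 FPKM, and the log2 fold change of 0.17 had a standard error of 0.133 (edgeR adjusted p = 0.305, exact permutation p = 0.371). Without ethanol replicate 2 the log2 fold change was 0.05, and without ethanol replicate 3 it was 0.29 (edgeR adjusted p = 0.0761). SPRR1A rests on 65 to 116 counts per library, the lowest depth of the 9 tested genes together with TGM1.

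SPRR1B (ENSG00000169469, chr1:153031203-153032900) was the more abundant of this pair at 63.7, 55.6, 78.9 and 68.2 FPKM in ethanol, against 84.8, 86.2, 78.0 and 67.4 FPKM in O/A. Ethanol replicate 3 lay among the O/A libraries, and O/A replicate 4 lay among the ethanol libraries. The means were 66.6 ± 9.72 and 79.1 ± 8.58 FPKM, and the log2 fold change of 0.29 with a standard error of 0.123 did not pass the test (edgeR adjusted p = 0.0883, exact permutation p = 0.0571). It was called when ethanol replicate 3 was left out, at 0.38 (edgeR adjusted p = 0.00757), when O/A replicate 4 was left out, at 0.36 (edgeR adjusted p = 0.0273), and with DESeq2, at 0.30 (adjusted p = 0.0378). Summed with SPRR1A it stayed uncalled, at a log2 fold change of 0.28 with a standard error of 0.129 (edgeR adjusted p = 0.115).

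Envoplakin (EVPL, ENSG00000167880, chr17:76004502-76027306, minus strand) and periplakin (PPL, ENSG00000118898, chr16:4882507-4960741, minus strand) are plakin proteins that pair with each other at the membrane, and each gene has 22 exons in its annotated transcript. EVPL was at 7.24, 7.53, 7.46 and 8.02 FPKM in ethanol, against 4.98, 5.20, 5.32 and 5.01 FPKM in O/A. The O/A libraries were close to one another and all below the ethanol libraries. The mean fell from 7.56 ± 0.329 to 5.13 ± 0.161 FPKM, with a log2 fold change of -0.52 and a standard error of 0.045 (edgeR adjusted p = 3.17e-14, exact permutation p = 0.0286).

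Its partner PPL was at 10.5, 10.4, 11.2 and 10.9 FPKM in ethanol, against 11.0, 11.9, 10.4 and 9.56 FPKM in O/A. The O/A libraries spread to both sides of the ethanol libraries. The means were 10.7 ± 0.360 and 10.7 ± 0.997 FPKM, and the log2 fold change was 0.05 with a standard error of 0.049 (edgeR adjusted p = 0.454, exact permutation p = 0.6). The log2 ratio of EVPL to PPL within a library, a comparison per exon length, was -0.54, -0.46, -0.58 and -0.44 in ethanol and -1.15, -1.20, -0.97 and -0.93 in O/A. The mean of this ratio fell by 0.56 on the log2 scale, with no overlap between the conditions, and is given as a description since the ratio was chosen after the values were seen.

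**Figure D2:**
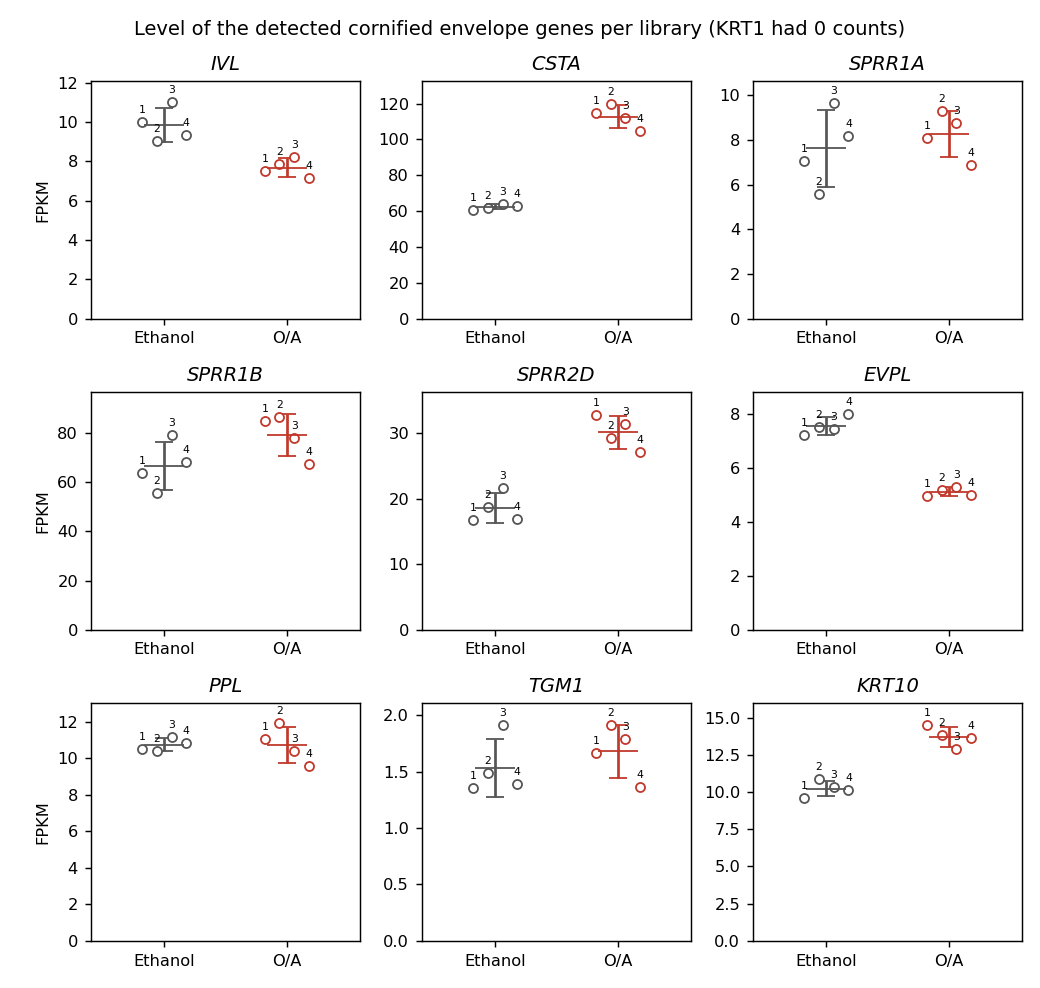
Each panel gives the FPKM of 1 gene in the 4 ethanol and the 4 O/A libraries, with the replicate number above each point, the mean as a line and the SD as bars, on a y axis that starts at 0. IVL and EVPL are lower and CSTA, SPRR2D and KRT10 higher in all O/A libraries, while the points of SPRR1A, SPRR1B, PPL and TGM1 overlap.

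Transglutaminase 1 (TGM1, ENSG00000092295, chr14:24249114-24264432, minus strand, 15 exons) is the membrane-bound enzyme that cross-links the precursors. It was the least abundant of the detected genes, at 1.35, 1.49, 1.91 and 1.39 FPKM in ethanol, against 1.66, 1.91, 1.79 and 1.36 FPKM in O/A. Its highest ethanol and its highest O/A library were both at 1.91 FPKM. The log2 fold change was 0.18 with a standard error of 0.121 (edgeR adjusted p = 0.203, exact permutation p = 0.314), and the gene rests on 90 to 134 counts per library. Without ethanol replicate 3 it passed the test, at 0.30 (edgeR adjusted p = 0.0422).

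Keratin 10 (KRT10, ENSG00000186395, chr17:40818117-40822614, minus strand, 8 exons) is the type I keratin of the suprabasal layers. It was at 9.58, 10.9, 10.3 and 10.2 FPKM in ethanol, against 14.5, 13.8, 12.9 and 13.6 FPKM in O/A, with every O/A library above every ethanol library. The mean rose from 10.2 ± 0.527 to 13.7 ± 0.674 FPKM, with a log2 fold change of 0.47 and a standard error of 0.057 (edgeR adjusted p = 8.44e-10, exact permutation p = 0.0286). Its level remained far below that of the basal type I keratin KRT14, with a log2 ratio of KRT10 to KRT14 of -6.70 ± 0.102 in ethanol and -6.14 ± 0.0545 in O/A (n = 4).

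KRT10 shares its position from 40819101 to 40822614 with KRT10-AS1, a gene on the other strand. KRT10-AS1 had 306, 280, 297 and 346 counts in ethanol and 286, 296, 300 and 302 counts in O/A, against 381 to 562 counts for KRT10. The sources used here do not say whether the counting used strand, and without strand the reads of the 2 genes cannot be told apart. The sum of both gave a log2 fold change of 0.29 with a standard error of 0.046 (edgeR adjusted p = 4.21e-07), in the direction of KRT10 and smaller in size. Reads of the shared stretch that were counted for neither gene, if any, are missing from this sum. The rows that overlap IVL, EVPL and PPL held at most 17 counts.

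Keratin 1 (KRT1, ENSG00000167768, chr12:52674736-52680407, minus strand), the type II partner of KRT10, had 0 counts in each of the 8 libraries. A count of 0 allows up to 3 counts per library, which corresponds to 0.0574 to 0.0701 FPKM, and this limit covers counting error only. KRT10 was thus detected in all libraries at 9.58 FPKM or more while its partner was not detected at this depth. No 150-base window of the transcripts of KRT1 or of the other 9 genes occurs in a transcript of another gene in the GENCODE annotation. This search took exact matches on the transcript strand only. It does not cover shorter reads, mismatches or genes on the opposite strand such as KRT10-AS1.

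On the FPKM scale the order of the levels in ethanol was SPRR1B and CSTA, SPRR2D, then PPL, KRT10 and IVL, then SPRR1A and EVPL, and last TGM1. The ethanol libraries of SPRR1B and CSTA overlapped, and those of PPL, KRT10 and IVL overlapped with one another. Those of SPRR1A overlapped with KRT10, IVL and EVPL. In O/A every library of CSTA was above every library of SPRR1B, and every library of KRT10 was above every library of PPL. SPRR1A and IVL overlapped in O/A, and EVPL and TGM1 were the lowest of the detected genes.

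A part of these genes shared their highest or lowest library within a condition. On the scale of CPM (counts scaled to library size, with TMM factors), ethanol replicate 3 was the highest ethanol library for IVL, CSTA, SPRR1A, SPRR1B, SPRR2D, PPL and TGM1, 7 of the 9 tested genes. O/A replicate 4 was the lowest O/A library for the same 7 genes. Neither held for EVPL and KRT10. How often the same libraries are extreme over all tested genes was not counted. Some deviations from the condition mean were small, such as 0.03 for CSTA and 0.05 for PPL in ethanol replicate 3, in log2 units. The deviations were largest for SPRR1A, at 0.36 and -0.42 log2 units for ethanol replicates 3 and 2, and for TGM1, at 0.32 and -0.29 log2 units for ethanol replicate 3 and O/A replicate 4. Without ethanol replicate 3, 5 of the genes were called up in place of 3, with SPRR1B and TGM1 added.

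**Figure D3:**
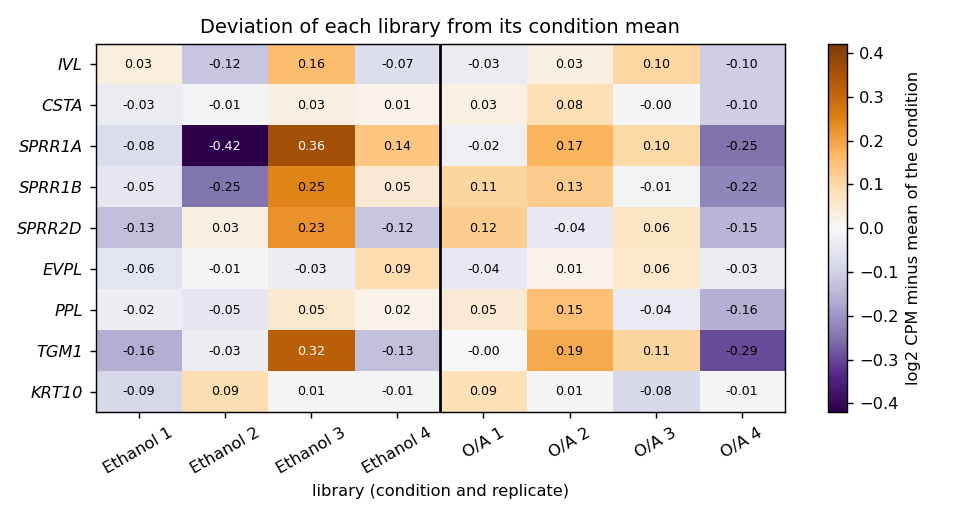
The colour and the number in each cell give the log2 CPM of a gene (rows) in a library (columns) minus the mean of its condition, with a line between the ethanol and the O/A libraries. Ethanol replicate 3 is above its mean for 8 of the genes and O/A replicate 4 below its mean for all 9, and SPRR1A ranges from -0.42 to 0.36.

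Of 41 other genes for envelope precursors, 30 had too few counts to be tested and 13 of these had 0 counts in all libraries. Loricrin (LORICRIN), the major late precursor, had 0 counts and profilaggrin (FLG) at most 3 counts in any library. Among the 11 tested genes edgeR and DESeq2 called 0 up, and 2 had a higher level in O/A at an unadjusted p under 0.05. Over all tested genes edgeR called 15.8% up and 18.9% down. Trichohyalin (TCHH), with 6 to 24 counts and a log2 fold change of -0.69 (edgeR adjusted p = 0.0462), was called down by edgeR and not by DESeq2. In this list 2 genes were called up without ethanol replicate 4 or without O/A replicate 3. The number called down was 0 with no filter on low counts and without ethanol replicate 2, ethanol replicate 3, O/A replicate 1 or O/A replicate 2, and 2 without ethanol replicate 4. The most abundant of them, elafin (PI3), was not called, with 66.5 ± 3.55 FPKM in ethanol libraries and 61.0 ± 6.48 FPKM in O/A libraries. The median log2 fold change of the 11 was -0.01.

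By position, the epidermal differentiation complex held 61 rows of the table between the start of TCHHL1 and the end of LORICRIN (chr1:152084141-153262124). Only 12 of these had enough counts to be tested, and 22 had 0 counts in all libraries. SPRR2D and PRR9 were called up, the latter on 3 to 19 counts with a log2 fold change of 1.20 (edgeR adjusted p = 0.00497), and IVL and TCHH were called down. Among all tested genes 15.8% were called up and 18.9% down. The region gave 4 genes called up without ethanol replicate 4 or without O/A replicate 3. It gave 1 gene called down with DESeq2 and with no filter. The same held without ethanol replicate 2, ethanol replicate 3, O/A replicate 1 or O/A replicate 2. Without ethanol replicate 4, 3 genes were called down. The summed level of the region was 107.44 to 140.54 FPKM in ethanol and 126.6 to 152.78 FPKM in O/A, with SPRR1B as its most abundant gene, and the median log2 fold change of the 12 tested genes was 0.20.

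Of 13 other enzymes and inhibitors that act on envelope proteins, 10 were tested, 1 was called up and 3 were called down. The shares called over all tested genes were 15.8% up and 18.9% down. SPINK5, an inhibitor of epidermal kallikreins, rose by 0.62 on the log2 scale (edgeR adjusted p = 3.45e-04). PADI3, which converts arginine to citrulline in structural proteins, fell by 0.92 on the log2 scale (edgeR adjusted p = 2.57e-06), the transglutaminase TGM2 fell by 0.53 (edgeR adjusted p = 1.18e-04) and the kallikrein KLK8 fell by 0.41 (edgeR adjusted p = 0.0175). KLK5 was the most abundant at 29.6 ± 2.25 FPKM in ethanol and was not called. Among the transglutaminases, TGM3 had 0 counts, TGM5 had 3 to 11 counts and TGM2 was at 0.86 ± 0.0902 FPKM in ethanol, below TGM1. The median log2 fold change of the 10 was -0.16, and the call of SPINK5 was lost with limma on log2(FPKM + 1). KLK8 held 84 to 94 counts in ethanol and 44 to 91 counts in O/A, so its counts overlapped. The number called down was 2 without ethanol replicate 2, O/A replicate 1 or O/A replicate 4, and with limma on log2(FPKM + 1).

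Enzymes of the lipid envelope moved in one direction where they were called. Of 11 genes, 7 were tested and 5 were called up, beside 15.8% called up over all tested genes. By edgeR and by DESeq2 0 were called down, and 0 were lower at an unadjusted p under 0.05. The median log2 fold change was 0.59 beside -0.000396 for all tested genes. UGCG, which makes glucosylceramide, rose from 18.9 ± 0.916 to 27.7 ± 0.628 FPKM, a log2 fold change of 0.59 (edgeR adjusted p = 1.21e-20). ALOXE3, of the lipoxygenase family, rose by 0.87 on the log2 scale (edgeR adjusted p = 1.09e-12). The ceramide synthase CERS3 and the fatty acid elongase ELOVL4 each rose by 0.63, and the lipid transporter ABCA12 rose by 0.57. ALOX12B, PNPLA1, CYP4F22 and SDR9C7 were too low to test.

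Transcription factors known in keratinocyte differentiation gave the largest changes of the related genes. Of 13, 12 were tested, 8 were called up and 2 were called down, beside 15.8% up and 18.9% down over all tested genes. The median log2 fold change was 0.38, beside -0.000396 over all tested genes. CEBPB rose from 15.1 ± 0.854 to 63.2 ± 2.15 FPKM, a log2 fold change of 2.11 (edgeR adjusted p = 2.83e-40), and KLF4 from 7.68 ± 0.344 to 24.4 ± 0.912 FPKM, a log2 fold change of 1.72 (edgeR adjusted p = 5.92e-36). EHF rose by 0.97 and PRDM1 by 0.86 on the log2 scale, and OVOL1, ZNF750 and GRHL1 rose by 0.37 to 0.72. MAF fell by 1.40 on 5 to 34 counts, CEBPA fell by 0.34, and GRHL3, at -0.13 (edgeR adjusted p = 0.0660), was not called.

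**Figure D4:**
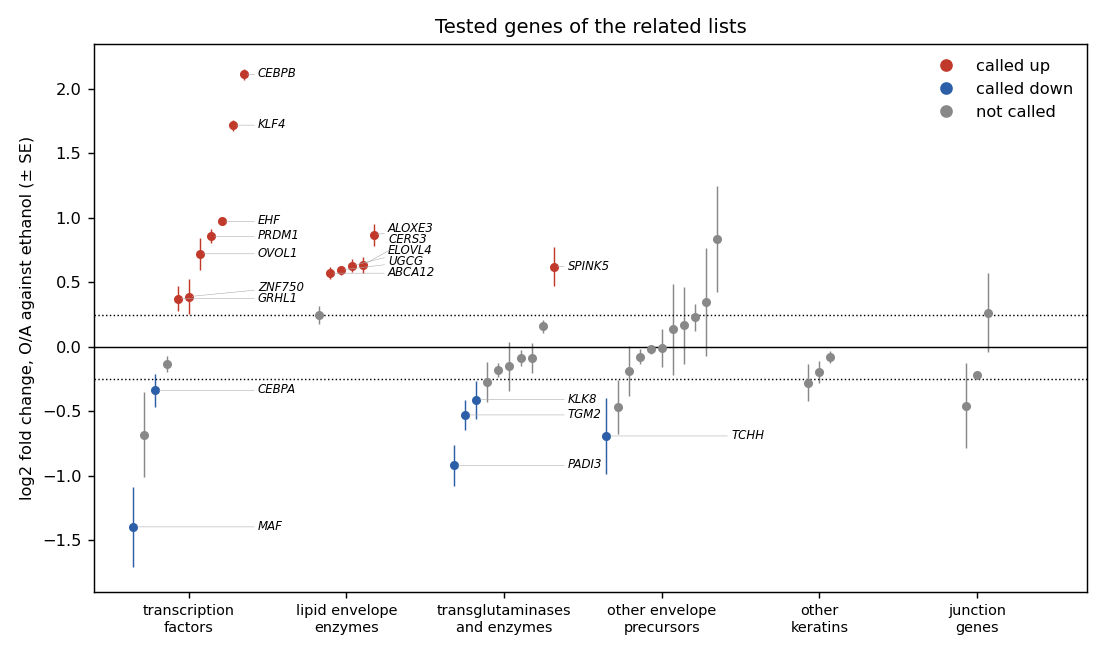
Points give the log2 fold change of O/A against ethanol with its standard error for tested genes of 6 related lists, coloured by call, with names in the order of the called points and dotted lines at the fold threshold of 0.25. Called transcription factors and lipid envelope enzymes lie mostly above 0, with CEBPB at 2.11 and KLF4 at 1.72, while the other precursors, keratins and junction genes are mostly uncalled.

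In the other suprabasal and mucosal keratins and in the junction genes, edgeR and DESeq2 called 0 genes. In each list 1 gene was lower in O/A at an unadjusted p under 0.05. Over all tested genes edgeR called 15.8% up and 18.9% down. In the keratins 1 gene was called down without ethanol replicate 4, without O/A replicate 1 and with limma on log2(FPKM + 0.1), and in the junction genes 1 was called down with limma at either pseudocount, 0.1 or 1, added to the FPKM. The medians of their log2 fold changes were -0.20 and -0.22. Of 9 keratins 3 were tested, of which KRT80 was the most abundant at 12.3 ± 0.483 and 11.3 ± 0.597 FPKM, and KRT2, which follows KRT1 in upper layers, had at most 1 count. Of 4 junction genes 3 were tested. PKP1, a plakophilin of desmosomes, was at 42.6 ± 1.62 and 35.5 ± 1.64 FPKM with a log2 fold change of -0.22 (edgeR adjusted p = 3.45e-08), within the fold threshold, and DSG1, a desmoglein of differentiated layers, had at most 10 counts.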

How the data were processed

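RNA from 8 cultures was sequenced as paired-end reads of 150 bases after selection with oligo(dT). The authors made the deposited counts by aligning reads to GRCh38.p13 with HISAT2 2.0.1 and counting them with HTSeq 0.6.1; the strand setting and the annotation release are not given in the sources used here. From these counts the authors derived the deposited FPKM values, which lie no more than 0.005 from the count over exonic size and library total. The authors also deposited the log2 fold change and p-values of their DESeq2 comparison, which were not used.

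Conditions and replicate numbers were taken from the labels. The quasi-likelihood test of edgeR 4.0.16 (R 4.3.3; robust fit, TMM) was run on the 14893 of 61806 genes that reached 10 counts in 4 or more libraries, and the scripts were tested on simulated data. A two-sided exact permutation test of log2 CPM served as a second test of each member. Alternatives were DESeq2 1.42.0, median-ratio scaling, no filter, limma 3.58.1 on log2(FPKM + 0.1) and log2(FPKM + 1), a replicate block, each library left out, other fold thresholds, and sums of near-identical or overlapping genes. The members, the related lists and the markers were chosen with earlier results of these data known. All 10 members are named; of the other lists, up to 4 called genes per direction with the largest changes and the most abundant uncalled gene were named by rule, and further genes were named after their values were seen. Some genes counted in these lists are not reported here by name or drawn. Coding sequences and exon counts come from the GENCODE v44 annotation of GRCh38, and gene coordinates from the deposited table. Library pairs of a condition differed by 1.67 to 4.81 chi-square units per gene, so none held the same counts as another. This measure cannot tell whether libraries were made from the same RNA.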

Additional observations from a re-analysis of the deposited data

How the results depend on the processing

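CSTA, SPRR2D, KRT10, EVPL and IVL kept their direction and stayed past both thresholds under every alternative run for them. The number of genes called up was 3 to 5 when single libraries were left out, the highest without ethanol replicate 3, and the number called down stayed at 2. With an absolute log2 fold change above 1, 0 genes were called up and 0 were called down, because no member changed by that much. SPRR1B was called with DESeq2 (log2 fold change 0.301) and ranged from 0.219 to 0.382 over the left-out libraries; TGM1 ranged from 0.127 to 0.301. PPL turned negative with limma on log2(FPKM + 0.1), at -0.00368, and on log2(FPKM + 1), at -0.00311, values close to 0. The causes of these shifts were not tested.

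Libraries with the same replicate number did not deviate together, with correlations of 0.0443, -0.00324, -0.0281 and 0.0744. With a replicate block, 3 members were called up and 2 down, and 5160 of all tested genes in place of 5165. In the related lists, the lipid enzymes gave 5 or 6 genes up and 0 down, and the transcription factors 6 to 8 up and 0 to 2 down. SPRR1A and TGM1 rest on 65 to 134 counts per library, which limits the size of change that could be seen in them. The fits without 1 library used genes that reached 10 counts in 3 or more libraries.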
